A study of Mus musculus with 4 samples.

Results

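The transcription factors described here are 9 genes grouped as factors of undifferentiated spermatogonia, without being specific to them. These germ cells include spermatogonial stem cells (SSCs) and the progenitors they form. The 9 genes are *Zbtb16* (the gene of PLZF), *Sall4*, *Sall1*, *Foxo1*, *Pou5f1* (OCT4), *Utf1*, *Zfp42* (REX1), *Taf4b* and *Pax7*. They were chosen by gene symbol from 54920 listed genes, with earlier results of these data known. All 9 were in the count files and all 9 passed the expression filter that left 23952 genes for testing. RNA was sequenced from cells sorted for ID4-EGFP, a reporter of the SSC regulator ID4, from mouse testes at postnatal day 8, with 2 control and 2 *Cnot3*-cKO libraries. The sample labels call the controls wild-type, whereas by the series design both groups carried Cnot3flox/flox and *Id4-eGfp*. Both received 4-OHT, the active form of tamoxifen, from day 1 to day 3. *Cnot3*-cKO mice also carried *Ddx4*-creER, in which the germ cell gene *Ddx4* drives an inducible Cre, and controls did not. CNOT3 is a subunit of the CCR4-NOT complex, which shortens the poly(A) tails of mRNAs.

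PLZF and SALL4 are zinc finger proteins that bind chromatin with corepressor complexes, among them the NuRD deacetylase complex for SALL4, and PLZF is required for SSCs to be maintained. By the study's account, *Zbtb16* is also expressed in differentiating spermatogonia in the first wave of spermatogenesis. FOXO1 is a forkhead factor that leaves the nucleus when AKT, acting downstream of PI3K, phosphorylates it. OCT4, UTF1 and REX1 belong to the pluripotency network of embryonic stem cells and are found in spermatogonia at low levels, TAF4B is a gonad-enriched subunit of the general transcription factor TFIID, and PAX7 marks rare spermatogonia.

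The libraries held 40957899 and 43378493 reads in the controls and 22192964 and 28019626 in *Cnot3*-cKO. Levels are given as CPM, the count per 1000000 reads in tested genes after TMM scaling, a scaling that assumes most genes do not differ. Log2 fold changes are *Cnot3*-cKO against control from the quasi-likelihood F test of edgeR, adjusted by Benjamini-Hochberg over all tested genes, and a gene passed the test at an adjusted p under 0.05. *Cnot3* itself had 58.6 and 50.2 CPM in the controls and 19.2 and 19.9 CPM in *Cnot3*-cKO, or 36.0% of control (log2 fold change -1.48, standard error 0.13, adjusted p = 1.48e-05). For this RNA-seq, a figure legend of the study gives more biological replicates than the 2 libraries per group that were available and analysed here. The labels do not say that the libraries of a group came from separate animals, so p-values measure the spread between these samples, which may be technical. An exact permutation test of 2 against 2 libraries cannot give a two-sided p below 0.333.

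Of the 9 transcription factors, 6 fell in *Cnot3*-cKO cells and 0 rose. *Sall1* fell most, to 36.3% of control, followed by *Foxo1*, *Zfp42*, *Zbtb16*, *Pou5f1* and *Sall4*, which kept 74.6%. *Pax7*, *Taf4b* and *Utf1* did not pass the test. Without adjustment, 7 factors, *Pax7* included, were lower at the same threshold in edgeR and 1 factor, *Taf4b*, was higher, and DESeq2 likewise found 0 factors higher after adjustment. Over all tested genes, 9.46% were lower and 11.1% were higher at this threshold, and the median log2 fold change was -0.82 for the 9 factors against 0.01 for all genes. At the stricter thresholds of the study, a fold change of more than 2 with an adjusted p under 0.01, *Sall1* was lower and 0 factors were higher, where 0.735% of all genes were lower and 4.03% higher. In 7 factors both *Cnot3*-cKO libraries lay below both controls, in *Taf4b* both lay above, and in *Utf1* the groups overlapped. Among all tested genes, 28.6% lay wholly below and 30.5% wholly above. The share of genes that were lower grew with expression, from 4.80% at an average log2 CPM of 1 to 4 to 16.1% at 4 to 6, 26.5% at 6 to 8 and 26.8% above 8, and the 6 factors that fell lie across these ranges.

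**Figure D1:**
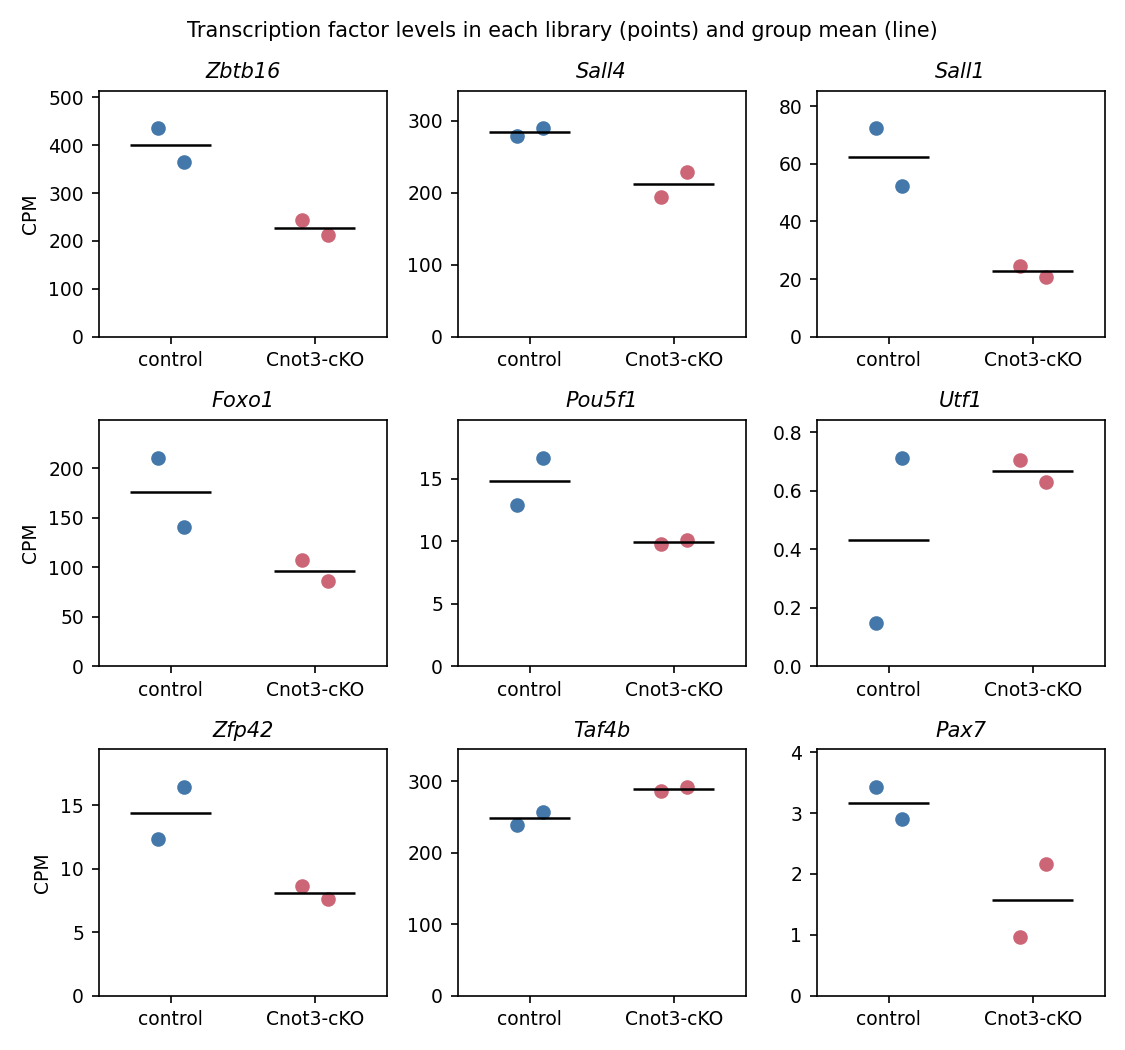
CPM of each of the 9 transcription factors in each library (points; control in blue, *Cnot3*-cKO in red) with the group mean as a line; every axis starts at 0 and has its own scale. For *Sall1* both *Cnot3*-cKO libraries, at 24.6 and 20.8 CPM, sit below the controls at 72.5 and 52.3 CPM, whereas the points of *Utf1* overlap.

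Genes of other testis cell types were higher in the same *Cnot3*-cKO libraries. All 12 Sertoli cell markers rose, and their summed level was 250 to 262 CPM in the controls and 834 to 858 CPM in *Cnot3*-cKO. Of the Leydig cell markers, 5 of 6 tested rose, from summed levels of 323 to 368 CPM to 831 to 897 CPM. *Insl3*, a defining Leydig cell hormone gene, had 0 reads in each library, and the reason was not tested. Of the macrophage markers, 8 of 9 rose, from 177 to 269 CPM to 484 to 593 CPM. Endothelial markers rose in 2 of 5 tested genes, from 22.6 to 25.7 CPM to 37.4 to 43.3 CPM, and peritubular myoid markers in 1 of 6, from 47.0 to 52.3 CPM to 51.4 to 57.3 CPM. The part of these genes in the lower levels of the transcription factors was not tested. Of 14 pan-germ cell genes, 2 rose and 5 fell, with a median log2 fold change of -0.12 (3, 1 and 0.12 when the libraries were scaled to these genes) and summed levels of 7574 to 8065 CPM in the controls and 6444 to 6819 CPM in *Cnot3*-cKO. Scaling to these genes makes their summed level equal in all libraries, so it cannot show whether they changed as a group. In such bulk samples, fewer cells of a type and less RNA per cell cannot be told apart. Counted per 1000 reads of these 14 genes in the same library, *Sall4* had 36.8 and 35.9 reads in the controls and 30.2 and 33.6 in *Cnot3*-cKO, a narrow gap, and *Sall1* had 9.57 and 6.49 against 3.82 and 3.05. *Foxo1* had 27.9 and 17.5 reads in the controls and 16.6 and 12.6 in *Cnot3*-cKO, where the lower control lay close to the higher *Cnot3*-cKO library.

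*Zbtb16*, *Foxo1* and *Sall1* were the factors whose fall held when the libraries were scaled to the 14 pan-germ cell genes instead of by TMM. The scaling used the summed reads of these genes, in which the most abundant weigh most. These were *Dazl* (control mean 2487 CPM, log2 fold change -0.21 with TMM) and *Tex15* (1435 CPM, -0.57). That scaling raised the median log2 fold change of all genes from 0.01 to 0.25, and all 9 factors moved up with it. *Sall4* then had a log2 fold change of -0.19 (edgeR, adjusted p = 0.213), *Pou5f1* of -0.33 (adjusted p = 0.237) and *Zfp42* of -0.58 (adjusted p = 0.0530). *Taf4b* had 0.46 and passed as higher (adjusted p = 0.00353). Under it, 87.9% of the genes at an adjusted p under 0.05 were higher, against 54.0% with TMM.

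**Figure D2:**
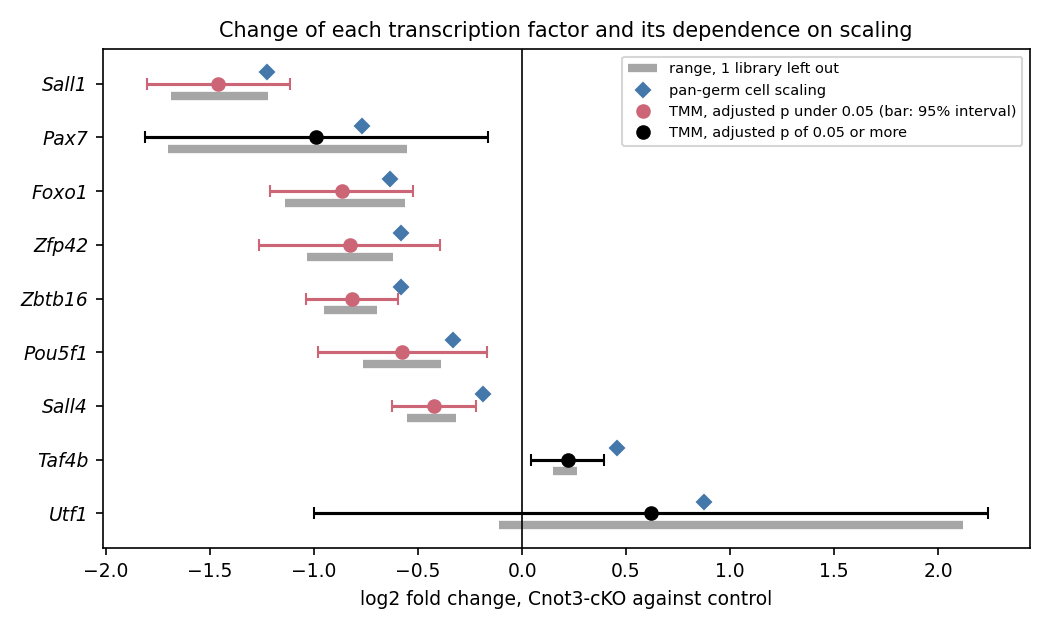
Log2 fold change of each transcription factor with its 95% confidence interval under TMM scaling (circles, red where the adjusted p was under 0.05), its value under pan-germ cell scaling (blue diamonds) and its range when 1 library was left out (grey bars). For *Sall1* all of these lie below 0, within the confidence interval of -1.80 to -1.12, and for *Utf1* they span 0.

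The promoters of factors that fell are shown so that their sequences can be set beside the levels. RefSeq windows on GRCm38.p6, from 250 bases before to 50 bases after the transcription start, were matched for 6 of the 9 factors (*Sall1*, *Foxo1*, *Pou5f1*, *Utf1*, *Zfp42* and *Pax7*), and the 4 printed here are those whose genes passed the test. Capitals mark matches on either strand to the octamer ATTTGCAT bound by OCT factors, the GC box GGGCGG, the CCAAT box CCAAT or the FOXO element TGTTTAC. The *Zfp42* window is chr8:43306960-43307259 on the reverse strand, the *Pou5f1* window chr17:35505782-35506081 on the forward strand, the *Sall1* window chr8:89044113-89044412 on the reverse strand and the *Foxo1* window chr3:52268087-52268386 on the forward strand, each written 5′ to 3′ in the direction of the gene.
Zfp42: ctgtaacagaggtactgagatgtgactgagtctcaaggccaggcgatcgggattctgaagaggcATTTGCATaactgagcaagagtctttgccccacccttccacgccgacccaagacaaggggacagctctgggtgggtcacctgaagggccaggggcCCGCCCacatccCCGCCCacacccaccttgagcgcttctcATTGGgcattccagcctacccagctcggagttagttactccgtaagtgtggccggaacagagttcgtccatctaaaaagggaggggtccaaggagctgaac
Pou5f1: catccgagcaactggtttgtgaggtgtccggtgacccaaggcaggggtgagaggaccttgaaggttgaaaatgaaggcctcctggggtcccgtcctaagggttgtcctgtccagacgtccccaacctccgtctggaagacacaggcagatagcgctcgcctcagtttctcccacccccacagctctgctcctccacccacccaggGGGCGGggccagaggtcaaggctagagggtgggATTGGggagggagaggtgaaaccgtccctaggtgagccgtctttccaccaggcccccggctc
Sall1: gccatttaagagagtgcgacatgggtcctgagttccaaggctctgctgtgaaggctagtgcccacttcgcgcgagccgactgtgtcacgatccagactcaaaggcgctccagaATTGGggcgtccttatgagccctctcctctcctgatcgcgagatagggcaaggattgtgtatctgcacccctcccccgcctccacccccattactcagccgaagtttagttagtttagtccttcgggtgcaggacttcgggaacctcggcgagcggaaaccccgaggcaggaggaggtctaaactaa
Foxo1: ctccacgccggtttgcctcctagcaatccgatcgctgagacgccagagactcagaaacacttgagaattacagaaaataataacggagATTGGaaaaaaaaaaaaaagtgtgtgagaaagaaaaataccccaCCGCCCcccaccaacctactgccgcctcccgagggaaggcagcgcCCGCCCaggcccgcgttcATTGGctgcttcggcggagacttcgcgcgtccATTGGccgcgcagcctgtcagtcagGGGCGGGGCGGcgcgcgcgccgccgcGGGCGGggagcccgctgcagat

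*Zfp42* was the only one of the 6 matched windows with the octamer, which starts 186 bases before the transcription start and is in 1.74% of 32851 mouse windows of this length. *Foxo1* held 5 GC boxes and 3 CCAAT boxes, *Zfp42* 2 and 1, and *Pou5f1* 1 and 1, while *Sall1* held 1 CCAAT box and 0 GC boxes. GC boxes are in 35.7% and CCAAT boxes in 37.4% of all windows. The 6 windows held 0 FOXO elements, which are in 3.65% of all windows. GC content was 57.3% in *Sall1*, 57.7% in *Zfp42*, 61.3% in *Foxo1* and 62.7% in *Pou5f1*, against a median of 52.7% over all windows. For *Sall1*, with 3 windows, and *Pou5f1*, with 2, only the window nearest the GENCODE gene start was searched. The transcription start of the *Pax7* window lies 560 bases from the GENCODE gene start. A match describes letters only, and binding was not measured here.

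*Zbtb16*, which encodes PLZF, a repressor with a BTB domain, had the highest level per length in controls and fell to 56.8% of it. The gene spans chr9:48654297-48836222 on the reverse strand of GRCm38. It had 436 and 364 CPM in the controls and 243 and 212 CPM in *Cnot3*-cKO, from 17545, 15314, 5496 and 6059 reads. Both *Cnot3*-cKO libraries were below both controls, and the gap of 364 to 243 CPM between the groups was wider than the difference within either. The means were 400 ± 50.7 CPM and 227 ± 21.9 CPM (SD, n = 2 each), with a log2 fold change of -0.82 (standard error 0.10, 95% confidence interval -1.04 to -0.60, edgeR adjusted p = 1.93e-04). It stayed lower and passed the test in each of the 14 alternatives, from -0.95 to -0.58.

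Among 12 genes of PLZF's partners, corepressors and targets, 4 fell and 0 rose, with a median log2 fold change of -0.21 (1 and 0, with a median of 0.03, under pan-germ cell scaling, where *Kit* remained lower at -0.82 and the other 3 did not pass). All 12 had an average log2 CPM above 4. Of all tested genes in the ranges above 4, 16.1% to 26.8% were lower and 9.52% to 14% higher with TMM. *Kit*, the receptor gene that PLZF represses, fell from 266 ± 15.3 CPM to 128 ± 13.1 CPM (SD, n = 2 each), a log2 fold change of -1.05 (edgeR adjusted p = 1.70e-05). *Kit* is also the marker of spermatogonia that have begun to differentiate. *Zbtb32*, a close relative of PLZF, fell by 0.54 on the log2 scale (adjusted p = 0.00710), the deacetylase gene *Hdac1* by 0.44 (adjusted p = 0.0198) and the Polycomb gene *Bmi1* by 0.42 (adjusted p = 0.00869). *Ddit4*, an inhibitor of mTORC1 that PLZF activates, had 23.7 and 23.0 CPM in the controls and 18.2 and 22.03 CPM in *Cnot3*-cKO and did not pass the test (adjusted p = 0.364).

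The SALL family moved in both directions: *Sall1* and *Sall4* fell and *Sall2* rose, while *Sall3* did not pass the test. SALL proteins are zinc finger factors related to Drosophila spalt, and SALL4 is the member with a known role in spermatogonia. *Sall4* spans chr2:168748332-168767943 on the reverse strand. It had 278 and 290 CPM in the controls and 194 and 229 CPM in *Cnot3*-cKO, from 11214, 12187, 4406 and 6561 reads. The controls lay close together and above both *Cnot3*-cKO libraries. The means were 284 ± 7.95 CPM and 212 ± 24.5 CPM (SD, n = 2 each), a log2 fold change of -0.42 (standard error 0.09, 95% confidence interval -0.62 to -0.22, edgeR adjusted p = 0.00656). Without *Cnot3*-cKO replicate 1, the lower library, it was -0.32 and did not pass the test (adjusted p = 0.127). An antisense gene, *Gm14261*, overlaps its exons and had 18 to 24 reads per library, and reads from the 2 strands cannot be told apart if strand was not used in counting.

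*Sall1* spans chr8:89027235-89044162 on the reverse strand and was the factor with the largest fall. It had 72.5 and 52.3 CPM in the controls and 24.6 and 20.8 CPM in *Cnot3*-cKO, from 2918, 2202, 557 and 596 reads. The lower control lay further above both *Cnot3*-cKO libraries than it lay below the other control. The means were 62.4 ± 14.2 CPM and 22.7 ± 2.67 CPM (SD, n = 2 each), a log2 fold change of -1.46 (standard error 0.16, 95% confidence interval -1.80 to -1.12, edgeR adjusted p = 7.04e-05). It passed in each of the 14 alternatives, from -1.69 to -1.22.

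*Sall2*, by contrast, had 6.43 and 6.44 CPM in the controls and 14.2 and 14.1 CPM in *Cnot3*-cKO, a log2 fold change of 1.14 (standard error 0.18, edgeR adjusted p = 0.00105). Its replicates were nearly equal within each group. *Sall3* had 5.41 and 3.04 CPM in the controls and 4.94 and 5.10 CPM in *Cnot3*-cKO (adjusted p = 0.616), with overlapping groups. The balance within the family therefore differed between libraries. For each *Sall1* read there were 3.84 and 5.53 *Sall4* reads in the controls and 7.91 and 11.01 in *Cnot3*-cKO, and for each *Sall2* read there were 43.3 and 45.0 *Sall4* reads in the controls and 13.7 and 16.2 in *Cnot3*-cKO. Neither ratio depends on scaling, and neither overlapped between the groups. Markers of other testis cell types rose in the same libraries, and their part in the level of *Sall2* was not tested. Of 13 genes of the NuRD complex, 4 fell and 0 rose (median -0.26): the methyl-CpG-binding domain gene *Mbd3* by 0.44 on the log2 scale (adjusted p = 0.0331), *Hdac1* as above, the histone chaperone gene *Rbbp4* by 0.33 (adjusted p = 0.0131) and *Gatad2a* by 0.31 (adjusted p = 0.0195). Under pan-germ cell scaling 0 NuRD genes were lower and 3 were higher, with a median of -0.02, and these 4 did not pass, while *Sall2* was still higher, at 1.37. All 13 NuRD genes had an average log2 CPM above 4. Of all tested genes in the ranges above 4, 16.1% to 26.8% were lower and 9.52% to 14% higher with TMM.

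*Foxo1*, the forkhead factor that marks undifferentiated spermatogonia and their precursors, fell to 54.8% of control. It spans chr3:52268336-52353221 on the forward strand, and its annotated 3′ UTR of 6240 bases is the longest of the 9 factors, where the median of 15794 tested coding genes is 897. Above that median lie 5 of the 9 factors, among them *Taf4b* with 2231 bases, which did not fall. *Zfp42* with 533 and *Pou5f1* with 221 fell and lie below it. A link between this length and the levels was not tested. *Foxo1* had 211 and 141 CPM in the controls and 107 and 86.0 CPM in *Cnot3*-cKO, from 8500, 5935, 2426 and 2464 reads. The controls were far apart, and the lower one was still above both *Cnot3*-cKO libraries. The means were 176 ± 49.5 CPM and 96.6 ± 14.9 CPM (SD, n = 2 each), a log2 fold change of -0.87 (standard error 0.16, 95% confidence interval -1.21 to -0.52, edgeR adjusted p = 0.00235). With dispersions estimated robustly it did not pass (adjusted p = 0.0649), and leaving out 1 library gave -1.14 to -0.56, the smaller fall without control replicate 1. An antisense gene, *Gm20402*, overlaps its exons and had 0 reads in all 4 libraries.

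Of the other FOXO genes, *Foxo3* also fell, and *Foxo4* and *Foxo6* did not pass the test. *Foxo3* had 212 and 221 CPM in the controls and 164 and 171 CPM in *Cnot3*-cKO, a log2 fold change of -0.37 (standard error 0.08, edgeR adjusted p = 0.00709), with no overlap, and it was -0.13 under pan-germ cell scaling (adjusted p = 0.376). *Foxo4* had a mean of 32.7 CPM in the controls and 27.9 CPM in *Cnot3*-cKO (adjusted p = 0.278), and *Foxo6* of 5.41 and 7.22 CPM (adjusted p = 0.209). For each *Foxo3* read there were 0.993 and 0.638 *Foxo1* reads in the controls and 0.654 and 0.502 in *Cnot3*-cKO, which overlapped, so that an unequal fall of the 2 genes was not shown.

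Genes that feed into FOXO proteins through PI3K and AKT moved in a way that depended on scaling: of 13, 6 fell and 1 rose with TMM, with a median log2 fold change of -0.22, and 3 fell and 3 rose under pan-germ cell scaling, with a median of 0.02. All 13 had an average log2 CPM above 4. Of all tested genes in the ranges above 4, 16.1% to 26.8% were lower and 9.52% to 14% higher with TMM. *Phlpp1* and *Phlpp2*, phosphatases that remove phosphate from AKT, fell by 0.83 (edgeR adjusted p = 0.00106) and 0.73 (adjusted p = 8.37e-04) on the log2 scale, and *Pik3r2*, a regulatory subunit of PI3K, fell by 0.40 (adjusted p = 0.0383, or 0.372 under pan-germ cell scaling). *Sgk3*, an AKT-related kinase, rose by 0.27 (adjusted p = 0.0291). Both kinases and phosphatases were among the genes that fell, and phosphorylation was not measured here.

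Genes known as FOXO targets moved in both directions. Of 19, 5 rose and 2 fell, and the median log2 fold change was 0.10 (8, 2 and 0.33 under pan-germ cell scaling). All 19 had an average log2 CPM above 1. Of all tested genes in the ranges above 1, 4.80% to 26.8% were lower and 9.52% to 17.3% higher with TMM. *Insr*, the insulin receptor gene, rose from 15.6 ± 2.49 CPM to 32.3 ± 0.778 CPM (SD, n = 2 each; log2 fold change 1.05, edgeR adjusted p = 5.02e-04), and *Cited2*, a coactivator of transcription, rose by 0.73 on the log2 scale (adjusted p = 0.0107). *Bcl6*, a repressor of the same BTB zinc finger class as PLZF, fell from 17.1 ± 0.578 CPM to 9.51 ± 1.60 CPM (log2 fold change -0.85, adjusted p = 0.00587), and the sestrin gene *Sesn3* fell by 0.61 (adjusted p = 0.00163).

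*Pou5f1* and *Zfp42*, the pluripotency-type factors with measurable levels, fell, and *Utf1* was too low to compare. *Pou5f1* spans chr17:35506018-35510772 on the forward strand. It had 12.9 and 16.7 CPM in the controls and 9.75 and 10.1 CPM in *Cnot3*-cKO, from 519, 702, 221 and 289 reads. The *Cnot3*-cKO libraries were nearly equal and below both controls. The means were 14.8 ± 2.69 CPM and 9.92 ± 0.238 CPM (SD, n = 2 each), a log2 fold change of -0.58 (standard error 0.19, 95% confidence interval -0.98 to -0.17, edgeR adjusted p = 0.0474). This adjusted p was close to the threshold and passed in 8 of 14 alternatives. Without control replicate 2 it was 0.248, without *Cnot3*-cKO replicate 1 it was 0.136 and without *Cnot3*-cKO replicate 2 it was 0.104. An antisense gene, *Gm19553*, had at most 1 read per library.

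*Zfp42*, a zinc finger gene that marks naive pluripotent cells, spans chr8:43295063-43306980 on the reverse strand. It had 12.3 and 16.4 CPM in the controls and 8.61 and 7.61 CPM in *Cnot3*-cKO, from 497, 691, 195 and 218 reads. Both *Cnot3*-cKO libraries were below both controls, and, as for *Pou5f1*, control replicate 2 was the higher control. The means were 14.4 ± 2.89 CPM and 8.11 ± 0.704 CPM (SD, n = 2 each), a log2 fold change of -0.83 (standard error 0.20, 95% confidence interval -1.26 to -0.39, edgeR adjusted p = 0.0113). The pseudogene *Zfp42-ps1*, to which reads of *Zfp42* could be assigned, had 6 to 18 reads per library. For *Zbtb16*, *Sall1* and *Foxo1*, control replicate 1 was the higher control.

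*Utf1*, a chromatin-associated coactivator, had 0.149 and 0.713 CPM in the controls and 0.706 and 0.628 CPM in *Cnot3*-cKO, from 6, 30, 16 and 18 reads. The controls differed more from each other than the groups did, and both *Cnot3*-cKO libraries lay between them. The log2 fold change was 0.62 (standard error 0.75, 95% confidence interval -1.002 to 2.239, edgeR adjusted p = 0.630), and leaving out control replicate 1 turned it to -0.11, while leaving out control replicate 2 gave 2.12. A difference was not detectable at this depth.

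In the wider pluripotency network, 2 of 21 tested genes rose and 5 fell, with a median log2 fold change of -0.04 (3, 3 and 0.19 under pan-germ cell scaling). Over all tested genes, 11.1% were higher and 9.46% lower with TMM. *Lin28a*, an RNA-binding protein of stem cells and progenitors, fell from 415 ± 7.59 CPM to 195 ± 5.51 CPM (SD, n = 2 each; log2 fold change -1.09, edgeR adjusted p = 3.85e-06). *Dppa3*, a gene of early embryonic and primordial germ cells, fell from 1.09 ± 0.102 CPM to 0.228 ± 0.0727 CPM (log2 fold change -2.22, adjusted p = 0.0227). This rested on few reads, 47 and 43 in the controls and 4 and 8 in *Cnot3*-cKO, with a 95% confidence interval of -3.56 to -0.89. *Nr0b1*, a nuclear receptor gene that Sertoli cells also express, rose from 1.21 ± 0.444 CPM to 4.11 ± 1.64 CPM (log2 fold change 1.77, adjusted p = 0.00620), and *Zfp57*, which protects imprinted methylation, rose from 3.43 ± 0.484 CPM to 6.36 ± 0.553 CPM (log2 fold change 0.89, adjusted p = 0.0225). The Sertoli cell markers that rose in the same libraries are given with the other cell types, and their part in the level of *Nr0b1* was not tested.

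*Taf4b* stood apart from the other abundant factors, since its level was not lower. It had 239 and 258 CPM in the controls and 286 and 292 CPM in *Cnot3*-cKO, from 9612, 10840, 6484 and 8360 reads. Both *Cnot3*-cKO libraries were above both controls, though by less on the log2 scale than any of the 6 factors that fell. The means were 248 ± 13.4 CPM and 289 ± 4.03 CPM (SD, n = 2 each), a log2 fold change of 0.22 (standard error 0.08, 95% confidence interval 0.04 to 0.40), which did not pass the test (edgeR adjusted p = 0.0757). It passed as higher in 5 of 14 alternatives, and the adjusted p over all 14 ranged from 0.00353 to 0.379.

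*Taf4*, the broadly expressed paralog of *Taf4b*, fell. It had 55.2 and 54.6 CPM in the controls and 41.9 and 34.2 CPM in *Cnot3*-cKO, a log2 fold change of -0.53 (standard error 0.12, edgeR adjusted p = 0.00885). For each *Taf4* read there were 4.32 and 4.72 *Taf4b* reads in the controls and 6.83 and 8.54 in *Cnot3*-cKO, without overlap. Of 17 tested genes of TFIID and the TBP family, 2 rose and 7 fell, with a median log2 fold change of -0.31 (3, 1 and -0.07 under pan-germ cell scaling, where *Taf4* and *Tbpl1* did not pass, with edgeR adjusted p = 0.151 and 0.0715). All but *Taf9* had an average log2 CPM above 4. Of all tested genes in the ranges above 4, 16.1% to 26.8% were lower and 9.52% to 14% higher with TMM. *Taf9b* fell by 0.57 on the log2 scale (adjusted p = 0.00103) and *Tbpl1*, a TBP-related gene required in spermatids, by 0.54 (adjusted p = 0.00331), while *Taf5* rose by 0.35 (adjusted p = 0.0265) and *Taf7* by 0.27 (adjusted p = 0.0316).

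*Pax7*, a paired-box gene, had 3.43 and 2.90 CPM in the controls and 0.971 and 2.16 CPM in *Cnot3*-cKO, from 138, 122, 22 and 62 reads. Both *Cnot3*-cKO libraries were below both controls, but they differed from each other by more than the controls did. The means were 3.16 ± 0.372 CPM and 1.57 ± 0.844 CPM (SD, n = 2 each), a log2 fold change of -0.99 (standard error 0.38, 95% confidence interval -1.81 to -0.16), which did not pass the test (edgeR adjusted p = 0.0872). It was -1.70 and passed without *Cnot3*-cKO replicate 2 (adjusted p = 0.00413), and it was -0.56 without *Cnot3*-cKO replicate 1 (adjusted p = 0.406).

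**Figure D3:**
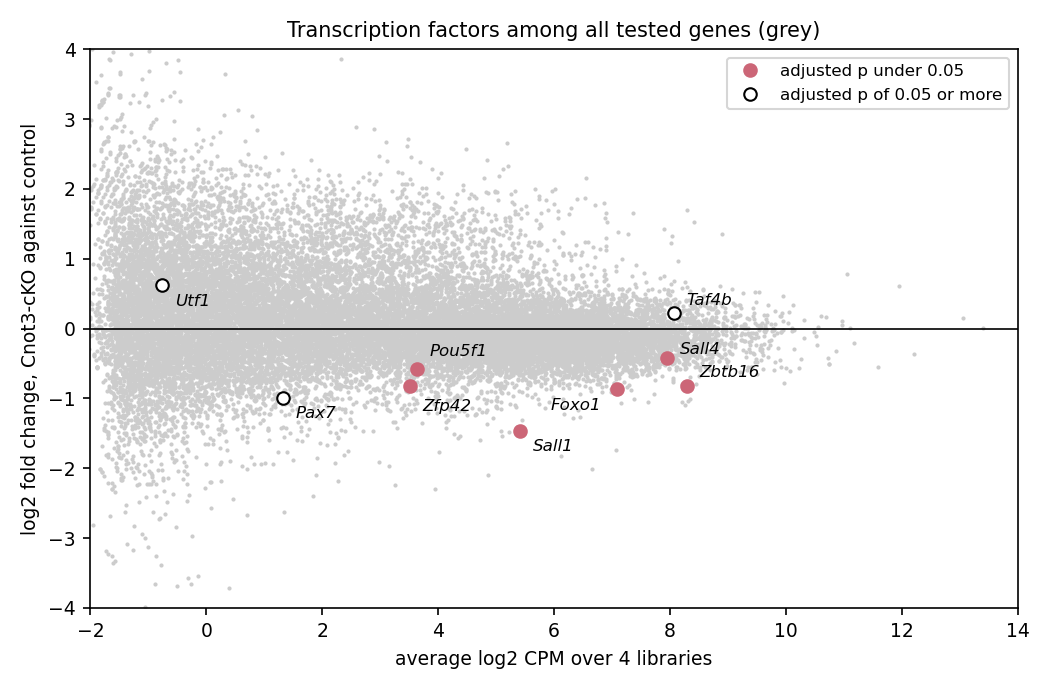
Log2 fold change against average log2 CPM for all tested genes (grey; 36 genes beyond ±4 on the vertical axis and 38 outside -2 to 14 on the horizontal axis are not drawn) with the 9 transcription factors marked, filled where the adjusted p was under 0.05. *Sall1* lies at -1.46, at the lower edge of genes of its level, and *Sall4* at -0.42 lies within them.

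Per length of exon, the factors spanned a wide range of levels, and their order differed between the groups. In controls the mean was 75.7 CPM per kilobase of exon for *Zbtb16*, 51.3 for *Sall4*, 48.2 for *Taf4b*, 20.3 for *Foxo1* and 11.9 for *Sall1*. *Zfp42* followed with 7.65 and *Pou5f1* with 6.58, which overlapped, and then *Pax7* with 0.540 and *Utf1* with 0.351, which overlapped too. In *Cnot3*-cKO *Taf4b* came first with 56.1 CPM per kilobase. *Zbtb16* with 43.0 and *Sall4* with 38.3 overlapped there, and *Foxo1* had 11.1. *Pou5f1* with 4.41, *Zfp42* with 4.31 and *Sall1* with 4.31 came next, each overlapping its neighbor, before *Utf1* with 0.544 and *Pax7* with 0.268. With the length of the longest transcript in place of all exons, *Pou5f1* came before *Zfp42* in controls, with 10.9 and 7.83 CPM per kilobase.

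**Figure D4:**
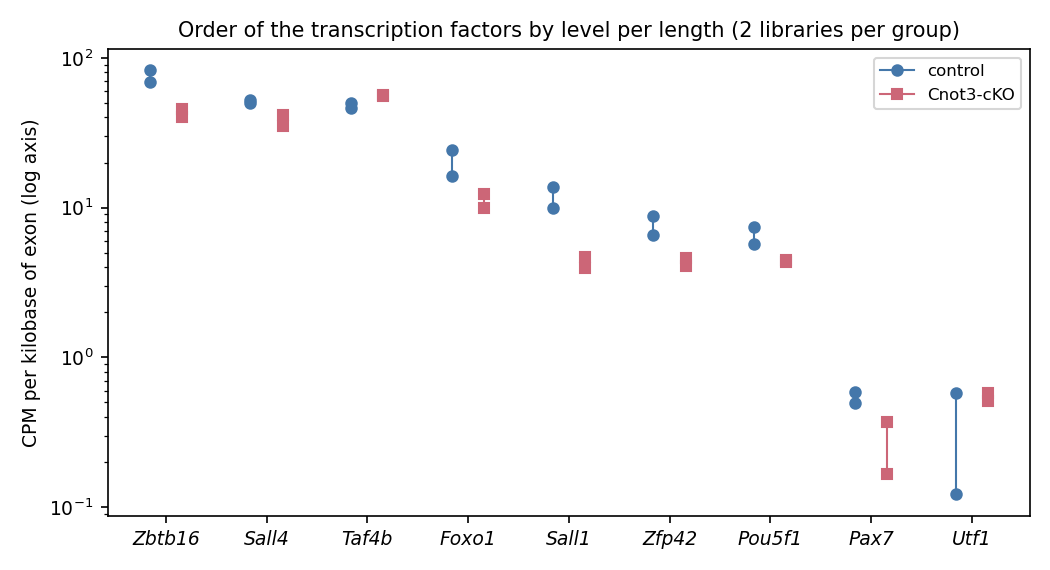
CPM per kilobase of exon on a log axis for each transcription factor in each library (2 control libraries as blue circles, 2 *Cnot3*-cKO libraries as red squares, joined within a group), ordered by the control mean. *Taf4b* lies below *Zbtb16* and *Sall4* in controls, at 48.2, and above both in *Cnot3*-cKO at 56.1 CPM per kilobase.

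The genes whose pattern over the 4 libraries was most like that of a factor were sought among 8972 other genes whose average log2 CPM was 4 or more, by the root mean square difference of centred log2 CPM. Closest to *Zbtb16* were *Msi1* (0.0316), which encodes an RNA-binding protein, and *Adgrv1* (0.0446). *Rai1* (0.0115) and *Eme1* (0.0130) were closest to *Sall4*, and *Polr3c* (0.0172) and *Anp32b* (0.0343) to *Foxo1*. For *Pou5f1* they were *Ehmt2* (0.0159), a histone methyltransferase gene, and *Ptprf* (0.0168), and for *Zfp42* they were *Atp5e* (0.0423) and *Trpc1* (0.0430). *Sall1* had the most distant closest genes, *Cxcl12* (0.0885), a chemokine gene, and *Nuak1* (0.106). The measure includes the difference between the groups, which was largest for *Sall1*, so the distance is not a separate trait of its pattern. With 4 libraries, such likeness describes few points.

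Other spermatogonial genes did not all move with the 9 factors. Of 15 tested genes of other stem cell regulators, 6 rose and 0 fell, with a median log2 fold change of 0.50 (10, 0 and 0.73 under pan-germ cell scaling). Markers of other testis cell types rose in the same libraries, and their part in the levels of these regulators was not tested. *Id4*, the gene behind the reporter used for sorting, had 20.6 and 19.7 CPM in the controls and 36.3 and 46.3 CPM in *Cnot3*-cKO (log2 fold change 1.04, edgeR adjusted p = 4.05e-04). *Gfra1*, the GDNF co-receptor gene of SSCs, had 95.7 and 91.0 CPM in the controls and 168 and 180 CPM in *Cnot3*-cKO (log2 fold change 0.90, adjusted p = 3.68e-05). Neither overlapped between the groups, and both were higher where 6 of the 9 factors were lower. Progenitor genes fell in 7 of 9 cases and rose in 0 (median -1.07, or 6, 0 and -0.83 under pan-germ cell scaling), and genes of differentiating spermatogonia fell in 6 of 8 and rose in 0 (median -0.88), where pan-germ cell scaling gave 5 lower and 2 higher (median -0.64). The lists share genes, so their counts are not separate. *Lin28a* and *Ddit4*, named above in other lists, are also counted as progenitor genes, and *Kit* as a gene of differentiating spermatogonia.

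**Figure D5:**
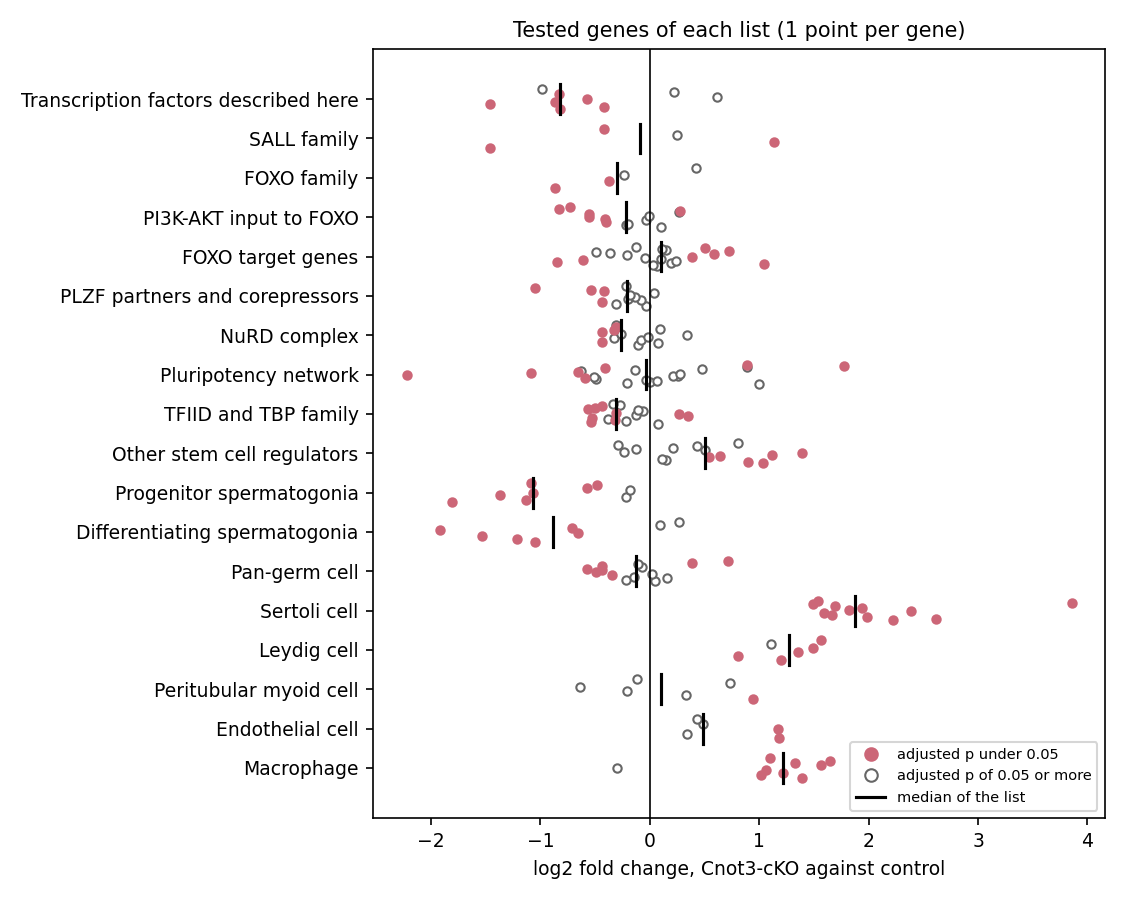
Log2 fold change of each tested gene (points, filled where the adjusted p was under 0.05) and the median (line) for the 9 transcription factors, their families, partners and targets, other spermatogonial genes and markers of other testis cell types. The median is -0.82 for the transcription factors, 0.50 for other stem cell regulators, -1.07 for progenitor genes and 1.88 for Sertoli cell markers.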

How the data were processed

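RNA-seq of ID4-EGFP+ cells from P8 testes was used for 2 control and 2 *Cnot3*-cKO libraries, grouped by the genotype label. The deposited values were read counts per gene symbol, not normalized. The authors filtered reads by quality, used STAR to align them to mm10, and used featureCounts to count them on a GENCODE annotation. Libraries were made with a stranded total RNA kit, and the options used for strand and for reads matching several genes are not given in the sources used here.

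Counts were tested with edgeR 4.0.16 in R 4.3.3, with TMM scaling, the default expression filter and the quasi-likelihood F test without covariates. Benjamini-Hochberg adjustment covered all 23952 tested genes, which held 99.86% to 99.91% of reads. The study used DESeq2, and DESeq2 1.42.0 was an alternative here. Replicates differed by more than sampling noise. Gene positions and lengths came from GENCODE M21 on GRCm38, and promoter windows from RefSeq. Floors were 3 reads per library and cover counting error only. The procedure was tested on simulated data. Figures were drawn with matplotlib 3.10.9 in Python 3.11.15.

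The 9 transcription factors and all gene lists were chosen with earlier results of these data known. Genes named were the 9 factors, *Cnot3*, their direct paralogs, *Kit*, *Ddit4*, *Id4* and *Gfra1*, the 2 genes most alike for each factor that passed, and, of each list of families, partners and targets, the genes that passed (the 2 largest and 2 smallest log2 fold changes where more than 4 did). *Insl3*, the antisense genes and *Zfp42-ps1* were added after their values were seen. Alternatives were other scalings, scaling to pan-germ cell genes, other filters, DESeq2, robust dispersions, thinning to the smallest library, a replicate block, another length and leaving out each library.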

Additional observations from a re-analysis of the deposited data

How the results depend on the processing

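*Zbtb16*, *Sall1* and *Cnot3* kept their direction and passed the test in all 14 alternatives. Of the 9 factors, 3 were lower at an adjusted p under 0.05 under pan-germ cell scaling, against 6 with TMM. *Taf4b* made 1 factor higher, against 0, under upper quartile scaling, library size only, pan-germ cell scaling and a mean count of at least 50. Leaving out 1 library gave 0 to 1 factors higher at that threshold and, each time, 2 lower at the study thresholds, against 1, with *Zfp42*, *Foxo1* or *Pax7* joining *Sall1*. It gave 217 to 271 genes lower at the study thresholds, against 176. The log2 fold change of *Utf1* ranged from -0.11, without control replicate 1, to 2.12. Over all genes, pan-germ cell scaling gave 1496 higher and 69 lower at the study thresholds (965 and 176 with TMM) and 4624 and 636 at an adjusted p under 0.05 (2659 and 2266), and no expression filter gave 285 lower at the study thresholds. Higher genes were 54.0% of those at an adjusted p under 0.05 with TMM, 60.0% with upper quartile scaling, 64.4% with library size only and 87.9% with pan-germ cell scaling. *Foxo1* was lost with robust dispersions, and *Pax7* passed without an expression filter (adjusted p = 0.0309). *Utf1* was not tested at a mean count of at least 50. With a replicate block, 7 factors were lower, *Pax7* (log2 fold change -1.05, edgeR adjusted p = 0.0407) being added, and 0 were higher. The libraries share only a number: deviations of those numbered 1 correlated at 0.132 over 8977 genes, from 2 pairs. The causes of these differences were not tested. Leaving out a library leaves a lone sample that is assumed to vary like the other group.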
